A study of Mus musculus with 20 samples.

Results

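The PyMT organoids examined here are pieces of mammary tumor from FVB mice that carry MMTV-PyMT, a transgene in which the mouse mammary tumor virus promoter drives the polyoma middle T oncogene in mammary epithelium. They were compared after 6 days of culture in matrigel with FGF2 and at day 0, when RNA was taken straight after the organoids had been prepared. The comparison uses 7 of the 20 libraries of the series. The 3 day 0 libraries (replicates 1 to 3) were set against 4 cultured libraries, namely day 6 replicates 1 and 2 and 2 libraries whose titles carry no day but whose labels give 6 days of culture (the undated libraries). Day 6 replicate 3 was also labelled as cultured. The 7 libraries were chosen by measured expression to the extent that this library was set aside because its profile resembled a tumor section, and all genes were examined. Polyadenylated RNA was sequenced. Neither the age of the mice nor whether replicates came from separate animals is given in the sources used here, so p-values measure only the spread between libraries of 1 label group, which may be technical. That spread was estimated over all 20 libraries of the series. Besides PyMT organoids, these hold cultured normal (WT) and Neu-NDL organoids and tumor sections of PyMT and Neu-NT mice. Counts of genes called depend on these too (last section).

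An organoid at day 0 is a fragment freed from tumor tissue by cutting and enzyme digestion. Cells that are dissociated or otherwise disturbed switch on immediate early genes within minutes, among them the AP-1 factors of the Fos and Jun families, and heat shock chaperones can follow. In matrigel, mammary epithelium grows as a ball of luminal cells around which basal cells, the layer that in the gland contracts and rests on the basement membrane, can spread. The transgene acts in the epithelium, and blood vessels, immune cells and fibroblasts of the tumor reach an organoid only as far as they stay attached to the fragments.

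Depth in these 7 libraries ran from 18245081 to 36047117 reads assigned to genes. Reads on no annotated gene made up 9.822 to 10.53% in day 0 and 4.77 to 7.2% in the 4 cultured libraries, and their part in the differences below was not tested. Undated replicate 1 had 6.045% of its gene counts on mitochondrial genes, against 1.491 to 2.788% in the other 6. Over genes, log2 CPM (counts per 1000000 counts of the library) of day 6 replicate 3 correlated with PyMT tumor section replicate 3 at r = 0.991, with day 0 at 0.943 to 0.964 and with the 4 cultured libraries at 0.868 to 0.906. Genes are not independent replicates. Counts of day 6 replicate 3 and tumor section replicate 3 differed by 45.5 times the sampling variance, well beyond counting noise, but this was the lowest value of any pair of PyMT libraries. Pairs within a group were at 82.0 or above. The profile of day 6 replicate 3 thus goes against its label, and every 5 against 3 value below rests on that label. In a principal component analysis of the 8 PyMT organoid libraries, the first component held 57.8% of the variance. On it, day 0 lay at 65.97 to 89.62, the 4 cultured libraries at -100.7 to -71.14 and day 6 replicate 3 at 114.6, beyond day 0.

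Because that library was set aside for its profile, each gene was tested in a pair of comparisons. The 4 against 3 comparison sets the mean of day 6 replicates 1 and 2 and the undated pair against day 0, and its p-values describe these 7 libraries. The 5 against 3 comparison follows the labels alone and returns replicate 3 to the day 6 group. A gene is said to have risen or fallen only where both gave an edgeR adjusted p under 0.05 in the same direction. Of 18698 genes tested, 1918 (10.3%) were higher and 2613 (14.0%) lower in 4 against 3. In 5 against 3, 766 (4.1%) were higher and 771 (4.12%) lower, all of them also called in 4 against 3, so that 766 genes (4.1%) rose and 771 (4.12%) fell, 1537 (8.22%) in all. A change of at least 2-fold was met by 499 genes that rose (2.67%) and 617 that fell (3.3%). Where the set-aside library lay is read here from the 4 against 3 calls, which do not use it. It was above the day 0 range for 596, within it for 686 and below it for 636 of the 1918 genes that were higher. Of the 2613 that were lower it was below for 819, within for 785 and above for 1009. That library was set aside for resembling a tumor section, so here and below its place is a description and no independent support.

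The 5 against 3 counts were fragile. Fitted on the PyMT organoid libraries alone, 7 genes were higher and 59 lower, where 4 against 3 gave 1876 and 2463. Left out one library at a time, 5 against 3 gave 148 higher and 328 lower without day 0 replicate 1, 67 and 165 without day 0 replicate 2 and 137 and 233 without day 0 replicate 3. It gave 405 and 437 without day 6 replicate 1, 492 and 600 without day 6 replicate 2, 218 and 206 without undated replicate 1 and 378 and 300 without undated replicate 2. Without day 6 replicate 3 it gave 1922 and 2605. With the replicate number as a block over day 0 and day 6 libraries, 5 against 3 gave 890 higher and 1276 lower. In 4 against 3, leaving out day 0 replicate 3 took the counts to 1146 higher and 1709 lower. The median log2 fold change of all genes was -0.07 in 4 against 3 and -0.02 in 5 against 3.

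Below, library values are CPM in the order day 0 replicates 1 to 3, day 6 replicates 1 and 2, undated replicates 1 and 2. Fold changes are log2, cultured over day 0, from 4 against 3 with their standard error (SE). The pair of edgeR adjusted p-values after them comes from 4 against 3 and from 5 against 3, in that order. Counts of list members that rose or fell are to be read beside 4.1% and 4.12% of all genes. Counts of members higher or lower in 4 against 3 are to be read beside 10.3% and 14.0%.

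**Figure D1:**
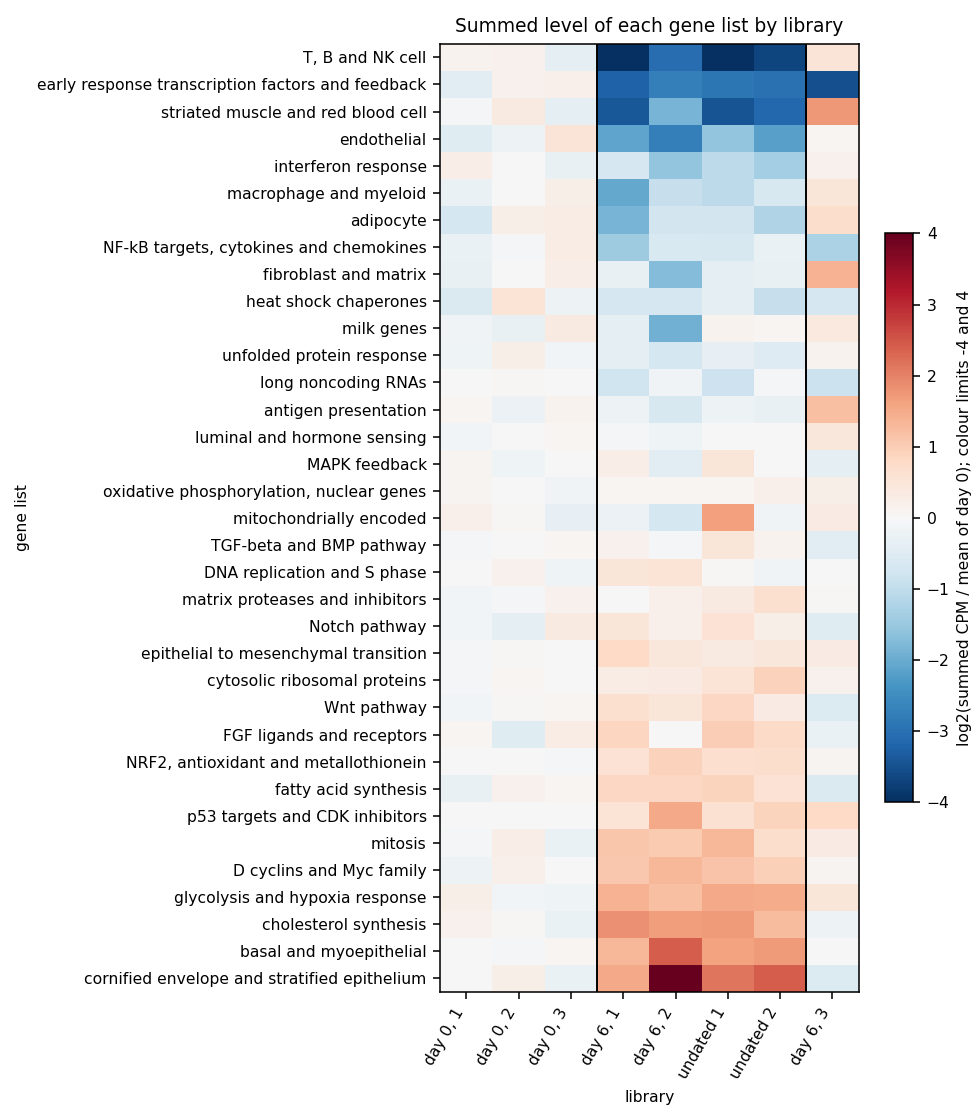
Summed CPM of each of 35 gene lists (rows) in the 8 PyMT organoid libraries (columns), as log2 of its ratio to the mean of the 3 day 0 libraries, with colour limits at -4 and 4. The 4 cultured libraries, between the vertical lines, are low for early response genes and for markers of lymphocytes and endothelium and high for glycolysis, cholesterol synthesis and basal genes, and day 6 replicate 3, in the last column, is low for early response genes alone among these.

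Promoters of 5 genes that rose or fell are shown first, from the early response (Dusp1 and Zfp36), cholesterol, mitosis and interferon groups described below, because each holds a motif that is textbook knowledge for its group. They are the 250 bases before the transcription start, from RefSeq (GRCm38.p6), written 5′ to 3′ on the gene's own strand, with the motif searched for in capitals. Dusp1 at chr17:26508473-26508722 (minus strand) holds TGACGTCA, the cAMP response element. Zfp36 at chr7:28379229-28379478 (minus strand) holds a CArG box, which serum response factor binds. Hmgcs1 at chr13:119690101-119690350 (plus strand) holds TCACCCCAC, a sterol response element. Ccnb2 at chr9:70421555-70421804 (minus strand) holds CCAAT, the NF-Y box. Rsad2 at chr12:26456453-26456702 (minus strand) holds a pair of TTTC runs set 2 bases apart, the core of the interferon response element.
Dusp1: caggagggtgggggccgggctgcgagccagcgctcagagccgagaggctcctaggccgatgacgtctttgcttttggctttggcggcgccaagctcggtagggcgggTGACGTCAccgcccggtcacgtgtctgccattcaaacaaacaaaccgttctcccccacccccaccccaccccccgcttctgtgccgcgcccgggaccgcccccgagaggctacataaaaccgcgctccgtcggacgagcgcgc
Zfp36: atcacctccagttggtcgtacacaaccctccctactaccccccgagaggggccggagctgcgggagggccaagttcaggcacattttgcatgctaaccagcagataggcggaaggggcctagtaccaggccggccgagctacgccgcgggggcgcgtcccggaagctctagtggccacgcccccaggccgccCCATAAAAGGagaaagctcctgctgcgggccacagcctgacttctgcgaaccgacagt
Hmgcs1: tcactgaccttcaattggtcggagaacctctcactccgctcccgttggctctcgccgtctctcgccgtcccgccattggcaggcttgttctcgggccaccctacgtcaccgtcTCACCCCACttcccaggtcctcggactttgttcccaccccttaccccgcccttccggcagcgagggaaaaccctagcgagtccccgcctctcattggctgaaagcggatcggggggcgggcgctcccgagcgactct
Ccnb2: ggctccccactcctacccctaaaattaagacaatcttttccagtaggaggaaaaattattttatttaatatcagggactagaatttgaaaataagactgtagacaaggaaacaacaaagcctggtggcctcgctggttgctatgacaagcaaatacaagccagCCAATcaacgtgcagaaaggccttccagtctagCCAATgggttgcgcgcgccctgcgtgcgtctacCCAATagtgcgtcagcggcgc
Rsad2: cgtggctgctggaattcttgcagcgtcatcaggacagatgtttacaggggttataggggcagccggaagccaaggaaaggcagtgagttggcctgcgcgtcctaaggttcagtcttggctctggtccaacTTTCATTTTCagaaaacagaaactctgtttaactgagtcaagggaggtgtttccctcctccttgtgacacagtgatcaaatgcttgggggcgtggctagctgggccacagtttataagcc

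Both strands were searched in the same window of all 27025 genes with a promoter in the RefSeq table. TGACGTCA occurred in 1.77% of these genes and in 3 of 31 early response genes that matched the table (9.68%), and the CArG box in 1.62% and in another count of 3 of 31 (9.68%). The TTTC pair occurred in 3.46% of all genes and in 10 of 19 interferon genes (52.6%). CCAAT is a common word, present in 37.5% of all genes, and occurred in 18 of 22 mitosis genes (81.8%) and in 14 of 14 matched cholesterol genes. TCACCCCAC occurred in 0.555% of all genes and in 1 of 14 cholesterol genes (7.14%). The heat shock element, GAA, TTC and GAA each set 2 bases apart, occurred in 0.514% of all genes and in 2 of 15 heat shock genes (13.3%). A match is a run of letters, and no binding was measured.

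Immediate early genes, the longest of the 35 lists, had the most members that fell. Of 38 early response transcription factors and feedback regulators, 25 fell and none rose, where 4.12% of all genes fell, and 27 had all 4 cultured libraries below all 3 day 0 libraries (19.6% of all genes). The median log2 fold change was -2.43. Medians were lower still for endothelial (-4.91), T, B and NK cell (-4.45), macrophage (-3.81) and milk genes (-2.65). Few or no members of those lists passed 5 against 3, which includes the tumor-like day 6 replicate 3, except among endothelial genes (7 of 16 fell). Fosb, an AP-1 subunit, stood at 1647, 2953 and 2365 CPM at day 0, at 10 and 8.81 CPM at day 6 and at 5.4 and 1.22 CPM in the undated libraries. Every cultured library was far below every day 0 library, and the fall was the largest among the genes named by size (-8.70, SE 0.45, adjusted p = 4.92e-08 and 2.21e-08). Fos, its more widely used relative, was at 3685, 4825 and 5238 CPM, then at 211 and 232 CPM, then at 129 and 54.6 CPM (-5.01, SE 0.37, adjusted p = 2.73e-06 and 1.64e-05). Jun, their partner, was at 1607, 2421 and 2483 CPM, then at 102 and 156 CPM, then at 132 and 116 CPM (-4.10, SE 0.32, adjusted p = 4.1e-06 and 1.62e-06). Neither gene overlapped between the groups.

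Members of other families moved with AP-1. Atf3, a stress-induced bZIP factor, was at 671, 1316 and 883 CPM, then at 4.72 and 14.7 CPM, then at 2.45 and 8.36 CPM (-7.04, SE 0.67, adjusted p = 1.71e-05 and 0.000211). Egr1, a zinc finger factor induced by growth factors, was at 1378, 1960 and 2401 CPM, then at 112 and 156 CPM, then at 206 and 66.8 CPM (-3.82, SE 0.41, adjusted p = 3.32e-05 and 0.000117). The groups of both genes were apart by a wide margin. Dusp1, a phosphatase that switches off MAP kinases, was at 596, 758 and 952 CPM, then at 9.11 and 16.8 CPM, then at 9.29 and 9.03 CPM (-6.14, SE 0.31, adjusted p = 4.9e-08 and 1.13e-05). Zfp36, which marks AU-rich mRNAs for decay, was at 1527, 1789 and 2738 CPM, then at 96.2 and 107 CPM, then at 209 and 79.5 CPM (-4.06, SE 0.30, adjusted p = 2.73e-06 and 1.37e-06). The other genes that fell included Junb, Jund, Egr2, Nr4a1, Klf2, Klf6, Ier2, Btg2, Csrnp1, Rhob, Mcl1 and Ccn1. Members that did not pass both comparisons included Myc (62.4, 84.4 and 74.3 CPM, then 67.5 and 143 CPM, then 165 and 79.5 CPM), Ier3, Fosl1, Klf4, Egr3 and Klf10.

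The day 0 level of this list stood apart from the rest of the PyMT samples. Summed over its 38 genes it was 19557 to 30130 CPM at day 0, 2831 to 3956 CPM in the 4 cultured libraries, 2334 CPM in day 6 replicate 3 and 1857 to 2183 CPM in the 3 PyMT tumor sections. Of the 29 early response genes lower in 4 against 3, day 6 replicate 3 lay below all 3 day 0 libraries for 27 and within their range for 2. Over all 2613 genes lower in 4 against 3 it lay below for 819. It was set aside for resembling a tumor section, and the sections were low for this list too, so this count is no independent support. That library and the tumor sections held macrophage and fibroblast marker sums above those of day 0, and endothelial sums within the day 0 range (below). The part of cell composition in the early gene sums was not tested.

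**Figure D2:**
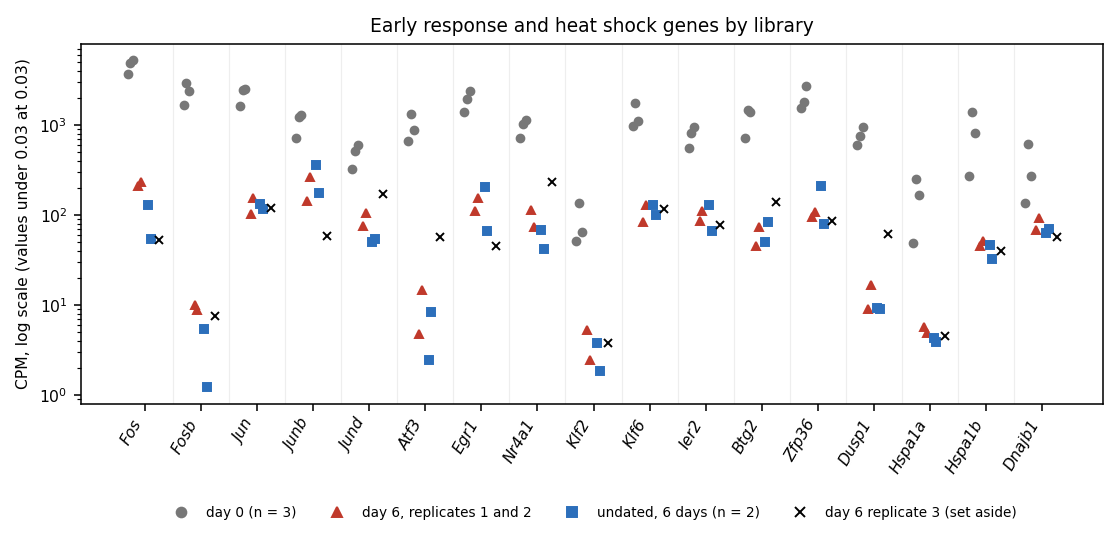
CPM (log axis) of 14 early response genes and 3 heat shock genes in the 3 day 0 libraries (circles), day 6 replicates 1 and 2 (triangles), the undated libraries (squares) and day 6 replicate 3 (crosses). For each gene shown, every cultured library, the cross included, lies below every day 0 library, from Fos (3685 to 5238 CPM at day 0) to Dnajb1 (137 to 615 CPM at day 0).

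Heat shock chaperones were lower as well, and day 0 replicate 2 was the highest library for Hspa1b, Dnajb1 and Hsph1. Of 20 genes 9 fell and none rose (4.12% and 4.1% of all genes). Hspa1b, an inducible Hsp70 gene, was at 268, 1407 and 814 CPM, then at 44.9 and 51.3 CPM, then at 46.7 and 32.8 CPM (-4.25, SE 0.49, adjusted p = 6e-05 and 8.55e-05). Hspa1a, its near-identical copy, had -5.06 (SE 0.54, adjusted p = 3.16e-05 and 3.04e-05), and how reads were split between the pair is uncertain. Their Hsp40 partner Dnajb1 was at 137, 615 and 272 CPM, then at 68.0 and 91.8 CPM, then at 62.4 and 69.6 CPM (-2.23, SE 0.35, adjusted p = 0.000483 and 0.00145). No cultured library reached a day 0 library for these genes, but day 0 itself spread several-fold. Hsph1, an Hsp110 nucleotide exchange factor, showed this most, with 97.1, 598 and 107 CPM at day 0 against 52.6 to 64.7 CPM after culture (-2.18, SE 0.49, adjusted p = 0.00569 and 0.0152). Hsp90ab1, an abundant Hsp90, was at 2259 to 3471 CPM at day 0 and at 2360 to 4258 CPM after culture, and it passed neither comparison, nor did Hspd1 and Stip1.

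In the unfolded protein response, 1 of 22 genes rose and 2 fell, beside 4.1% and 4.12% of all genes. In 4 against 3, 1 was higher and 7 lower (10.3% and 14.0% of all genes). All 4 cultured libraries were below all 3 day 0 libraries for 8 of them (19.6% of all genes). The endoplasmic reticulum chaperone Hspa5 was at 1452, 2377 and 1645 CPM, then at 801 and 492 CPM, then at 589 and 781 CPM (-1.46, SE 0.22, adjusted p = 0.000346 and 0.00745). Ppp1r15a, a phosphatase subunit that restores translation, fell with it (-2.51, SE 0.27, adjusted p = 2.98e-05 and 3.04e-05), while Trib3, a target of Atf4, rose from 19.7 to 38.8 CPM at day 0 to 58.6 to 97.5 CPM (1.56, SE 0.32, adjusted p = 0.00314 and 0.0228). Atf4 itself was at 267 to 297 CPM and at 236 to 278 CPM.

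Among 29 tested NF-kB targets, cytokines and chemokines, 9 fell and 4 rose, where 4.12% of all genes fell and 4.1% rose. Those that fell were mostly rapid feedback genes and inflammatory cytokines. Nfkbia, the inhibitor that holds NF-kB in the cytoplasm, was at 335, 338 and 542 CPM, then at 72.3 and 112 CPM, then at 107 and 115 CPM (-2.0, SE 0.24, adjusted p = 8.31e-05 and 0.00074), with no overlap. Nfkbiz (-2.74, SE 0.38, adjusted p = 0.000206 and 0.000713) and Tnfaip3 (-1.91, SE 0.24, adjusted p = 8.62e-05 and 0.00199), both induced by NF-kB, fell too. The interleukin gene Il1b was at 11.3, 14.8 and 11.1 CPM, then at 0.163 and 0.683 CPM, then at 0.134 and 0.0368 CPM (-5.95, SE 0.75, adjusted p = 0.000101 and 0.00305). The neutrophil chemokine gene Cxcl2 was at 24.8, 27.3 and 20.2 CPM, then at 0.434 and 0.99 CPM, then at 0.369 and 2.36 CPM (-4.60, SE 0.72, adjusted p = 0.000447 and 0.00166). Tnf, Il6, Lif and Cxcl10 completed the 9. Rises were seen in the chemokine Cxcl5 (0.152 to 1.35 CPM at day 0, 7.34 to 64.3 CPM after culture; 4.51, SE 0.96, adjusted p = 0.00382 and 0.0247), in Tnfaip2 (3.11, SE 0.66, adjusted p = 0.00382 and 0.0474) and in the NF-kB pathway genes Nfkb2 and Nfkbie. Macrophage marker sums moved in the same direction as Il1b and Tnf, and their part was not tested.

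Interferon-induced genes were lower in culture. Of 25 genes 6 fell and none rose (4.12% and 4.1% of all genes). In 4 against 3, 16 were lower (14.0% of all genes), and the median was -1.17. Rsad2, an antiviral radical enzyme, was at 92.0, 82.3 and 21.0 CPM, then at 11.3 and 5.57 CPM, then at 3.29 and 4.68 CPM (-3.49, SE 0.71, adjusted p = 0.00297 and 0.0151). Mx2, of the Mx GTPase family, is annotated as a polymorphic pseudogene. Its RNA was at 33.4, 41.0 and 21.0 CPM, then at 10.1 and 5.81 CPM, then at 6.61 and 4.61 CPM (-2.25, SE 0.47, adjusted p = 0.00362 and 0.0246). The groups did not overlap for either gene, and day 0 replicate 3 was the lowest of day 0 for both. Usp18, which limits interferon signalling, overlapped at its edge, with 16.3 CPM in day 0 replicate 3 and 17.5 CPM in day 6 replicate 1 (-2.21, SE 0.56, adjusted p = 0.0107 and 0.0392). Mx1, Irf1 and Gbp3 also fell. Summed over the list, the cultured libraries held 509 to 943 CPM, day 0 1232 to 1805 CPM, day 6 replicate 3 1692 CPM and the tumor sections 1118 to 1918 CPM. In antigen presentation, 1 of 17 genes fell and none rose, near the 4.12% of all genes that fell. In 4 against 3, 6 were lower (14.0% of all genes). The gene that fell was Ciita, the regulator of MHC class II genes, chosen here after its value was seen. The class I gene H2-D1 was at 1036, 1029 and 1180 CPM, then at 805 and 753 CPM, then at 736 and 763 CPM and passed neither comparison (-0.50, SE 0.23, adjusted p = 0.118 and 0.894).

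Markers of cells other than epithelium had lower sums after culture. Replicate 3 was set aside for a profile like that of a tumor section, so these levels are a description with no test. Adjusted p-values from 4 against 3 for genes of such cells, given elsewhere, carry the same limit. Summed over 20 macrophage and myeloid genes, day 0 held 480 to 685 CPM, the 4 cultured libraries 141 to 372 CPM, day 6 replicate 3 816 CPM and the tumor sections 855 to 1344 CPM. Over 16 endothelial genes the same groups held 212 to 428, 45.5 to 100, 318 and 216 to 331 CPM. Over 20 fibroblast and matrix genes they held 1689 to 2494, 621 to 1708, 5398 and 4481 to 10736 CPM. T, B and NK cell markers summed to 4.65 to 6.97 CPM at day 0 and to 0.326 to 0.751 CPM in the cultured libraries, where 8 of 19, among them Cd8a, Gzmb and Nkg7, had no count in any of the 4. Of these 8, Ms4a1 had none at day 0 either. Adipocyte markers summed to 42.6 to 84.6 and 19 to 41.7 CPM, with Adipoq and Lep at 0 in all 4 cultured libraries and at most 0.0505 CPM at day 0, and striated muscle and red blood cell genes to 28.0 to 47.1 and 3.32 to 10.1 CPM. In bulk RNA, fewer cells of a type and less RNA per cell cannot be told apart.

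Single markers show how much remained. Ptprc, the leukocyte antigen CD45, was at 12.1, 16.2 and 14.4 CPM, then at 0.488 and 0.512 CPM, then at 0.369 and 0.884 CPM. Cdh5, the cadherin of endothelial junctions, was at 30.0, 38.3 and 61.0 CPM, then at 0.326 and 0.512 CPM, then at 0.268 and 0.7 CPM. Col3a1, a fibrillar collagen, was at 226, 238 and 299 CPM, then at 4.88 and 5.43 CPM, then at 17 and 10.6 CPM. Each was lower in every cultured library than in every day 0 library. The lysosomal gene Cd68, listed as a macrophage marker but present in other cells, was at 15.0, 17.1 and 16.0 CPM and at 15.2, 19.6, 17.2 and 16.0 CPM. Fn1, fibronectin, which epithelium can also make, was at 119 to 151 CPM at day 0 and at 255 to 1155 CPM after culture.

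The epithelial identity of the fragments was visible at both times. Epcam, an epithelial adhesion molecule, was at 1116, 954 and 1220 CPM, then at 1696 and 1092 CPM, then at 2218 and 2205 CPM, and rose slightly (0.68, SE 0.20, adjusted p = 0.0243 and 0.0392) with overlapping groups. E-cadherin (Cdh1) was at 533, 627 and 595 CPM, then at 622 and 936 CPM, then at 793 and 473 CPM, and the luminal keratin Krt8 at 1949 to 2216 CPM and 1202 to 2118 CPM. Neither passed a comparison.

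Cholesterol synthesis and glycolysis held more genes that rose than any other list. Glycolysis and hypoxia response genes rose in 12 of 30 and fell in none, where 4.1% of all genes rose, and 23 of 30 were higher in 4 against 3 (10.3% of all genes). Their median was 1.52. Slc16a3, the transporter that exports lactate, was at 17.3, 22.8 and 6.11 CPM, then at 284 and 371 CPM, then at 311 and 343 CPM (4.41, SE 0.59, adjusted p = 0.000143 and 0.0134). Bnip3, a mitophagy receptor induced by hypoxia, was at 92.9, 49.4 and 17.7 CPM, then at 419 and 380 CPM, then at 465 and 489 CPM (3.03, SE 0.61, adjusted p = 0.0028 and 0.0388). Both sets of cultured libraries lay close together and far above day 0, which spread several-fold with replicate 3 lowest. P4ha2, a collagen prolyl hydroxylase (2.79, SE 0.44, adjusted p = 0.000542 and 0.0196), and Ndrg1, another hypoxia-induced gene (2.15, SE 0.42, adjusted p = 0.00212 and 0.0459), rose in the same way.

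Enzymes along glycolysis rose from its early to its last steps: Gpi1, Tpi1, Gapdh, Pgam1, Eno1, Pkm and Ldha. Gapdh was at 1262, 828 and 648 CPM, then at 3563 and 2432 CPM, then at 4743 and 4682 CPM (2.04, SE 0.35, adjusted p = 0.000858 and 0.0152). Pkm, pyruvate kinase, was at 2278, 1674 and 1479 CPM, then at 5412 and 4746 CPM, then at 6412 and 4856 CPM (1.56, SE 0.24, adjusted p = 0.00035 and 0.0265). The groups were apart for both genes. Other members passed 4 against 3 alone. Pgk1, phosphoglycerate kinase, was at 661, 436 and 218 CPM, then at 2011 and 1816 CPM, then at 1508 and 2304 CPM (adjusted p = 0.00322 and 0.0544). The hypoxia marker Car9 was at 34.6 to 71.9 CPM at day 0 and at 139 to 273 CPM after culture (adjusted p = 0.00348 and 0.0587). The growth factor Vegfa was at 131 to 362 CPM and 629 to 1013 CPM (adjusted p = 0.0475 and 0.197). The glucose transporter gene Slc2a3 was at 0.832 to 2.93 CPM and 0.326 to 1.03 CPM and passed neither (adjusted p = 0.311 and 0.366). Nuclear genes of oxidative phosphorylation passed in 0 of 26 by edgeR in either comparison, 1 of them had an unadjusted p under 0.05 in 4 against 3, and their log2 fold changes lay between -0.48 and 0.38. Of 13 mitochondrially encoded genes 1 fell, mt-Nd4l (4.12% of all genes fell). That list summed to 18551 and 13514 CPM at day 6 and to 68977 and 19918 CPM in the undated libraries, so undated replicate 1 alone was far above day 0 (17656 to 25574 CPM).

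Cholesterol synthesis had the highest share of genes that rose among the 35 lists. Of 22 genes 13 rose, none fell, 21 were higher in 4 against 3, and 21 had every cultured library above every day 0 library (15.8% of all genes). The median was 1.68. Hmgcs1, which makes HMG-CoA, was at 93.0, 87.6 and 58.2 CPM, then at 417 and 468 CPM, then at 445 and 290 CPM (2.34, SE 0.28, adjusted p = 6.51e-05 and 0.0193). The lowest cultured library was at several times the highest day 0 library. Mvk, Mvd and Fdps of the mevalonate steps, Fdft1 and Sqle of the squalene steps, Cyp51, Msmo1, Nsdhl and Sc5d of the sterol steps, the sterol carrier Stard4 and the controlling factor Srebf2 (1.16, SE 0.15, adjusted p = 0.000132 and 0.0364) rose as well. Dhcr7, the last enzyme of the pathway, passed neither comparison (0.72, SE 0.30, adjusted p = 0.0893 and 0.124).

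Day 6 replicate 3 was mostly not above day 0 for these genes. For the 21 cholesterol genes higher in 4 against 3 it lay above the day 0 range in 1, within it in 10 and below it in 10, and for the 23 glycolysis genes above in 2, within in 15 and below in 6. Summed over the cholesterol list it held 1003 CPM, against 959 to 1319 CPM at day 0, 2786 to 4151 CPM in the 4 cultured libraries and 701 to 974 CPM in the tumor sections. For the glycolysis list these sums were 17690 CPM, 11305 to 15138 CPM, 29212 to 36252 CPM and 8112 to 16134 CPM.

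Fatty acid synthesis was mixed. Of 22 genes 5 rose and 1 fell (4.1% and 4.12% of all genes). Me1, the malic enzyme that supplies NADPH, was at 166, 124 and 154 CPM, then at 1019 and 465 CPM, then at 1016 and 880 CPM (2.5, SE 0.31, adjusted p = 9.85e-05 and 0.008). Acss2, which makes acetyl-CoA from acetate, was at 22.9, 29.1 and 20.6 CPM, then at 125 and 127 CPM, then at 165 and 112 CPM (2.45, SE 0.27, adjusted p = 4.21e-05 and 0.00812). The groups were apart for both genes. The citrate carrier Slc25a1 (2.07, SE 0.19, adjusted p = 1.28e-05 and 0.00523) and the desaturases Fads1 and Scd2 also rose. Srebf1, the factor named for this branch, was at 1211, 1874 and 2260 CPM, then at 771 and 490 CPM, then at 701 and 600 CPM, and fell (-1.48, SE 0.27, adjusted p = 0.00146 and 0.00536). Fasn, fatty acid synthase, was at 275, 632 and 418 CPM, then at 736 and 908 CPM, then at 830 and 570 CPM and passed neither comparison.

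**Figure D3:**
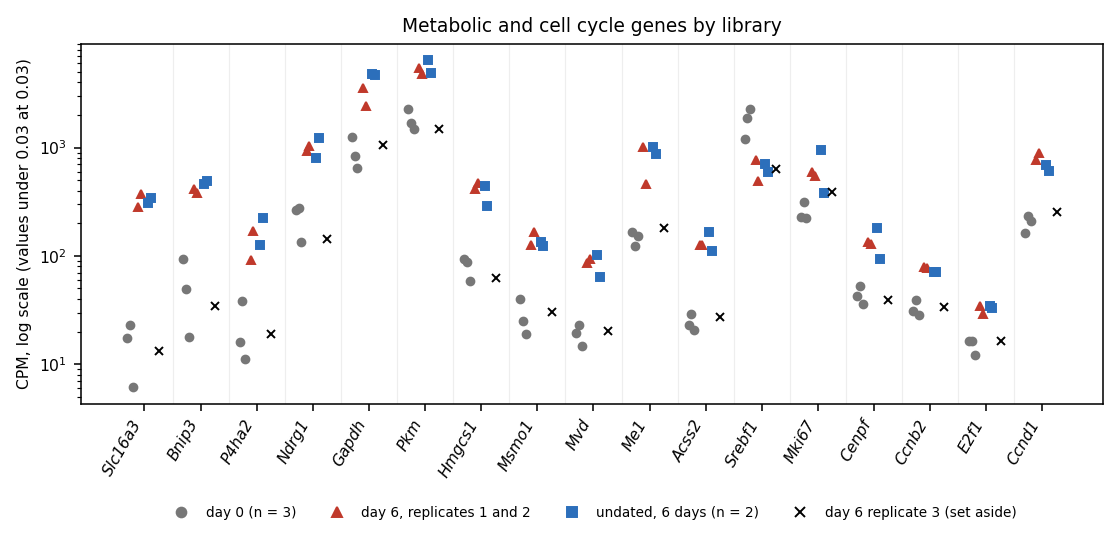
CPM (log axis) of 12 metabolic and 5 cell cycle genes, with symbols for day 0 (circles), day 6 replicates 1 and 2 (triangles), undated (squares) and day 6 replicate 3 (crosses). Apart from Srebf1, every triangle and square lies above every circle, and the crosses lie above every circle for Me1, Mki67 and Ccnd1 and within or below the circles for the others.

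Mitotic genes had higher values throughout, by a small amount. Of 28 genes 7 rose and none fell (4.1% of all genes rose), 22 were higher in 4 against 3 (10.3% of all genes), and the lowest and highest log2 fold changes of the list were 0.39 and 1.62. Mki67, the proliferation marker Ki-67, was at 228, 316 and 226 CPM, then at 594 and 550 CPM, then at 955 and 377 CPM (1.27, SE 0.35, adjusted p = 0.017 and 0.046). Ccnb2, a B-type cyclin, was at 30.7, 39.1 and 28.3 CPM, then at 78.9 and 76.5 CPM, then at 71.4 and 71.5 CPM (1.19, SE 0.26, adjusted p = 0.00492 and 0.0485). The groups were apart for both. The centromere protein Cenpf (1.62, SE 0.35, adjusted p = 0.0041 and 0.046), the spindle protein Nusap1, the kinases Plk1 and Aurkb and the midzone protein Prc1 rose with them. Several of these lay close to the threshold in 5 against 3. Of the 22 higher in 4 against 3, day 6 replicate 3 was above the day 0 range for 10, within it for 10 and below it for 2.

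Genes of S phase were mostly uncalled. Of 28 DNA replication genes 1 rose, E2f1, and none fell, near the 4.1% of all genes that rose, and their median was 0.16. Against day 0 the median was -0.22 for the undated libraries alone and 0.49 for day 6 replicates 1 and 2 alone. E2f1, which drives entry into S phase, was at 16.2, 16.5 and 12.1 CPM, then at 34.3 and 29.1 CPM, then at 34.5 and 32.8 CPM (1.13, SE 0.26, adjusted p = 0.00638 and 0.0442). Pcna was at 154, 206 and 151 CPM, then at 198 and 226 CPM, then at 115 and 135 CPM, and the helicase subunit Mcm2 at 51.7 to 67.0 and 30.6 to 75.5 CPM. For both the undated libraries were below day 0 and day 6 was within or above it. Whether the S phase and mitosis lists differ was not tested. Ccnd1, the D cyclin downstream of growth factor signals, was at 164, 235 and 209 CPM, then at 775 and 884 CPM, then at 687 and 610 CPM (1.85, SE 0.43, adjusted p = 0.00695 and 0.0455) and was the only one of 8 D cyclin and Myc family genes that rose. Among 26 cytosolic ribosomal protein genes 5 rose (4.1% of all genes). They rose by at most 0.81 (Rpl13, 600 to 729 CPM at day 0 and 955 to 1523 CPM after culture, adjusted p = 0.00988 and 0.0368). Ribosomal genes have many processed copies, so how their reads were assigned is uncertain.

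The neighbouring CDK inhibitor genes Cdkn2b and Cdkn2a rose. Of 20 p53 targets and CDK inhibitors 5 rose and none fell, where 4.1% of all genes rose. Log2 fold changes of the list ran from -1.19 to 3.80, with a median of 0.21. Cdkn2b, the INK4 inhibitor p15, was at 2.49, 2.63 and 4.37 CPM, then at 35.2 and 44.6 CPM, then at 42.1 and 55.9 CPM (3.80, SE 0.69, adjusted p = 0.00135 and 0.0116). Its neighbour Cdkn2a, which encodes p16 and p19Arf, was at 1.66, 0.758 and 4.15 CPM, then at 16.9 and 14.0 CPM, then at 11.7 and 37.8 CPM (3.14, SE 0.75, adjusted p = 0.0078 and 0.0224). Neither overlapped. The desmosomal p53 target Perp (2.25, SE 0.38, adjusted p = 0.000772 and 0.0204), Phlda3 and Ccng1 were the others that rose. Of the 6 genes of the list higher in 4 against 3, day 6 replicate 3 lay above day 0 for all 6. Over all genes higher in 4 against 3 it did so for 596 of 1918. Its sum over the list was 1769 CPM, against 998 to 1041 CPM at day 0 and 856 to 1707 CPM in the tumor sections. As it was set aside for resembling a tumor section, its place is no independent support. Mdm2, a direct p53 target, was at 68.0 to 79.0 CPM and 72.4 to 87.3 CPM, and Cdkn1a (p21) at 68.9 to 119 CPM and 230 to 437 CPM, with adjusted p = 0.0209 in 4 against 3 and 0.0519 in 5 against 3.

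In the NRF2 and antioxidant list 3 of 20 genes rose and none fell (4.1% of all genes rose), and 10 were higher in 4 against 3. Nfe2l2, which encodes NRF2, was at 55.7, 77.5 and 66.9 CPM, then at 104 and 214 CPM, then at 196 and 146 CPM (1.30, SE 0.23, adjusted p = 0.00121 and 0.018). G6pdx, the entry enzyme of the pentose phosphate pathway, and the peroxidase Gpx1 also rose. Nqo1, a standard NRF2 target, was at 63.9, 30.8 and 73.0 CPM, then at 379 and 220 CPM, then at 572 and 504 CPM, and missed in 5 against 3 (2.84, SE 0.61, adjusted p = 0.00427 and 0.0565). Its groups did not overlap. Hmox1 was at 28.0 to 94.9 CPM and at 37.1 to 147 CPM and passed neither.

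Of 21 basal and myoepithelial genes 3 rose and 2, both of smooth muscle, fell (4.1% and 4.12% of all genes), and in 4 against 3 there were 7 higher and 2 lower. Lama3, a chain of the basement membrane protein laminin-332, was at 7.17, 14.5 and 17.9 CPM, then at 174 and 239 CPM, then at 289 and 303 CPM (4.23, SE 0.82, adjusted p = 0.00218 and 0.0363). P-cadherin (Cdh3) was at 3.33, 4.9 and 7.42 CPM, then at 34.4 and 28.1 CPM, then at 62.9 and 38.7 CPM (2.93, SE 0.37, adjusted p = 0.000111 and 0.0151). All 4 cultured libraries stood well above day 0 for Lama3 and Cdh3. Smooth muscle myosin Myh11 was at 5.61, 16.1 and 18.7 CPM, then at 3.63 and 1.02 CPM, then at 1.91 and 1.51 CPM (-2.76, SE 0.70, adjusted p = 0.0105 and 0.0285). Tagln, an actin-binding protein of smooth muscle, fell with it (-2.41, SE 0.51, adjusted p = 0.00401 and 0.0404).

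The basal keratins had high and uneven values after culture and passed neither comparison. Krt14 was at 60.3, 167 and 111 CPM, then at 758 and 4423 CPM, then at 731 and 1570 CPM (3.93, SE 1.76, adjusted p = 0.117 and 0.226). Krt5 was at 31.3, 56.9 and 60.2 CPM, then at 272 and 1834 CPM, then at 611 and 791 CPM (4.12, SE 1.46, adjusted p = 0.0516 and 0.146). No cultured library overlapped day 0, and day 6 replicate 2 was the highest for both. Trp63, the transcription factor of basal cells, was at 14.3 to 30.0 CPM and at 55.8 to 162 CPM (adjusted p = 0.116 and 0.292).

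Genes of stratified, cornifying epithelium set day 6 replicate 2 apart. Summed over the list, day 0 held 298 to 425 CPM, day 6 1020 and 9107 CPM and the undated libraries 1564 and 1924 CPM. Of 24 genes tested 1 rose and none fell, near the 4.1% of all genes that rose, and 7 were higher in 4 against 3 (10.3% of all genes). It was Pkp1, a desmosomal plaque protein, at 16.9, 28.5 and 34.2 CPM, then at 435 and 1239 CPM, then at 673 and 761 CPM (4.87, SE 1.05, adjusted p = 0.00423 and 0.0465). Krt6a, a keratin of wounded and hyperproliferative epidermis, was at 1.56, 9.65 and 0.568 CPM, then at 112 and 1282 CPM, then at 59.2 and 171 CPM (adjusted p = 0.0129 and 0.0854), and shares reads with its close copy Krt6b. Krt16 was at 2245 CPM and Krt1 at 217 CPM in day 6 replicate 2, where the other 3 cultured libraries held 29.7 to 89.1 CPM and 1.74 to 11.9 CPM. The median of the list was 4.80 for day 6 replicates 1 and 2 against day 0 and 1.52 for the undated libraries against day 0. Day 0 replicate 2 was likewise the highest of day 0 for Krt6a, Krt16 and Krt1.

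Of 26 luminal genes 3 rose and none fell (4.1% and 4.12% of all genes), while in 4 against 3 there were 4 higher and 4 lower, and the median was -0.36. Aldh1a3, a retinaldehyde dehydrogenase of luminal progenitors, was at 15.1, 12.6 and 25.9 CPM, then at 160 and 115 CPM, then at 255 and 292 CPM (3.43, SE 0.58, adjusted p = 0.000807 and 0.0211). The simple keratin Krt7 was at 121, 135 and 130 CPM, then at 354 and 693 CPM, then at 390 and 490 CPM (1.90, SE 0.34, adjusted p = 0.00121 and 0.029). Neither overlapped, and Epcam was the remaining one. The luminal factors Ehf (641 to 824 CPM at day 0, 155 to 372 CPM after culture, adjusted p = 0.00237 and 0.107) and Elf5 (380 to 661 and 258 to 459 CPM, adjusted p = 0.0522 and 0.266) had lower values. Hormone receptors were low throughout, with Pgr at 1.66 to 4.75 and 0.163 to 2.21 CPM and Esr1 at 3.69 to 8.55 and 1.88 to 9.76 CPM.

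Of 18 milk genes 1 fell and none rose, near the 4.12% of all genes that fell, and 7 were lower in 4 against 3 (14.0% of all genes). Their sum was 18516 to 29215 CPM at day 0, 17558 and 6080 CPM at day 6 and, inside the day 0 range, 25202 and 24346 CPM in the undated libraries. The sum does not follow each member, as all 4 cultured libraries lay below all 3 day 0 libraries for 10 of the 18 (19.6% of all genes). Csn2, beta-casein, was at 108, 164 and 66.6 CPM, then at 0.217 and 1.88 CPM, then at 1.54 and 1.36 CPM, and fell (-6.47, SE 1.57, adjusted p = 0.00851 and 0.048). Kappa-casein (Csn3) was at 7722, 6992 and 10513 CPM, then at 1929 and 320 CPM, then at 3249 and 2010 CPM (-2.29, SE 0.47, adjusted p = 0.00292 and 0.335). Lactoferrin (Ltf) was at 1033, 1133 and 1503 CPM, then at 26.3 and 79.1 CPM, then at 63.3 and 50.6 CPM (-4.48, SE 1.01, adjusted p = 0.00552 and 0.17). The 4 cultured libraries were below day 0 for all 3 genes, while day 6 replicate 3 held 15176 CPM of Csn3 and 2153 CPM of Ltf. Csn1s1 went the other way in its values, at 127 to 204 CPM at day 0 and at 165 and 161 CPM, then at 662 and 719 CPM, and passed neither comparison.

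**Figure D4:**
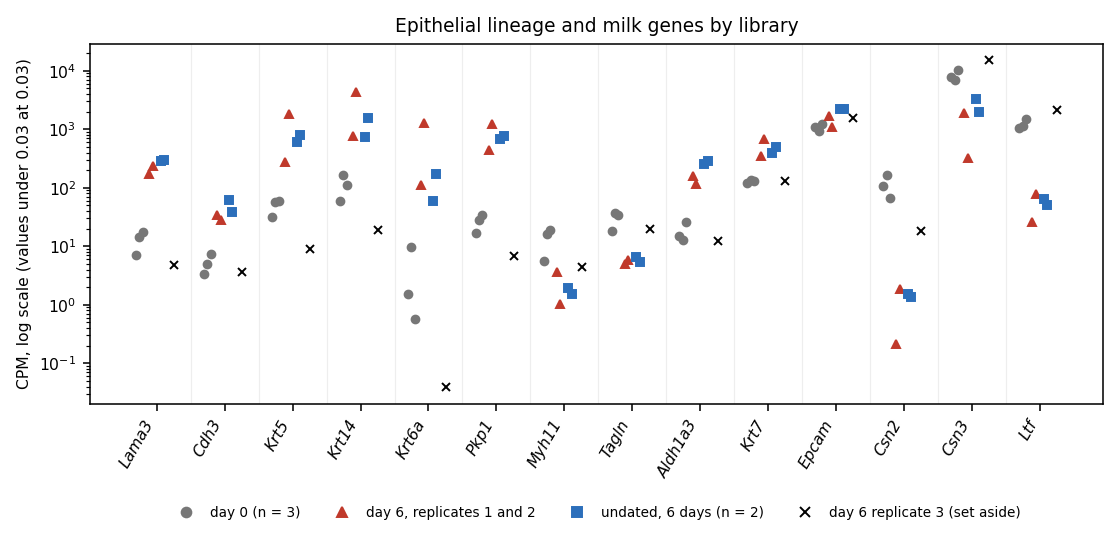
CPM (log axis) of 14 epithelial genes by library, with symbols for day 0 (circles), day 6 replicates 1 and 2 (triangles), undated (squares) and day 6 replicate 3 (crosses), and values under 0.03 drawn at 0.03. Lama3, the keratins and Pkp1 stand above day 0 in the 4 cultured libraries and milk genes below, with Krt14, Krt5 and Krt6a highest in day 6 replicate 2 (4423, 1834 and 1282 CPM).

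FGF2 was in the culture medium, and genes of its pathway were examined by role. Of 14 tested ligands, receptors and binding proteins 1 rose and 1 fell (4.1% and 4.12% of all genes), and 2 were higher and 4 lower in 4 against 3. Fgfbp1, a carrier that releases FGFs from the matrix, was at 1.87, 1.21 and 0.461 CPM, then at 66.9 and 153 CPM, then at 77.8 and 141 CPM (6.57, SE 0.76, adjusted p = 5.76e-05 and 0.00709). The receptor gene Fgfr4 fell from 1.38 to 2.43 CPM to 0.101 to 0.307 CPM (-3.61, SE 0.44, adjusted p = 8.25e-05 and 0.00767). Fgfr1 was at 250 to 498 CPM and 234 to 688 CPM, and Fgfr2 at 9.75 to 11.4 and 7.16 to 13.4 CPM. Of 20 genes that MAP kinase signalling induces or that feed back on it, 1 rose and 4 fell (4.1% and 4.12% of all genes), and 4 were higher and 5 lower in 4 against 3. The ETS factor Etv4 was at 29.8, 14.6 and 17.5 CPM, then at 87.2 and 84.5 CPM, then at 104 and 86.2 CPM (2.13, SE 0.39, adjusted p = 0.00155 and 0.0294). Dusp5, a nuclear ERK phosphatase, was at 94.8, 247 and 243 CPM, then at 18.8 and 34.2 CPM, then at 14.7 and 16.2 CPM (-3.27, SE 0.47, adjusted p = 0.000239 and 0.0225). The EGF receptor ligand Hbegf, the cytokine Lif and the inhibitor Spry1 fell as well, whereas Dusp6 (303 to 608 and 126 to 486 CPM), Spry2 and Spry4 passed neither comparison.

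In the Wnt pathway 1 of 31 genes rose and 1 fell (4.1% and 4.12% of all genes), while 7 were higher and 2 lower in 4 against 3 (10.3% and 14.0% of all genes). Lef1, a nuclear partner of beta-catenin, was at 0.624, 0.303 and 0.497 CPM, then at 40.9 and 5.63 CPM, then at 32.2 and 12 CPM (5.56, SE 0.94, adjusted p = 0.000863 and 0.0233). Its levels varied several-fold among the cultured libraries without reaching day 0. Rnf43, which removes Wnt receptors, fell (-0.93, SE 0.20, adjusted p = 0.00373 and 0.0264). Axin2, the common Wnt target, was at 1.92, 22.4 and 1.38 CPM, then at 0.868 and 79.8 CPM, then at 0.57 and 0.111 CPM. It was high in replicate 2 of day 0 and of day 6 and low in the other 5 libraries, and so were Notum and Nkd1, 2 further targets (21.7 CPM of Nkd1 in day 6 replicate 2 and 11 CPM in day 0 replicate 2, against 0.814 to 2.82 CPM elsewhere).

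Notch and TGF-beta ligands were among the rises. In the Notch list 3 of 16 genes rose and none fell, where 4.1% of all genes rose. In 4 against 3, 4 were higher and 3 lower (10.3% and 14.0% of all genes). The ligand Jag1 was at 12.6, 14.3 and 13.9 CPM, then at 49.8 and 132 CPM, then at 62.8 and 71.0 CPM (2.52, SE 0.35, adjusted p = 0.000185 and 0.0119). Rbpj, the DNA-binding partner of Notch, was at 18.8, 20.0 and 20.2 CPM, then at 40.9 and 55.1 CPM, then at 37.7 and 50.8 CPM (1.23, SE 0.17, adjusted p = 0.000219 and 0.0338), and the feedback gene Nrarp rose too. The groups were apart for Jag1 and Rbpj. Dll4 and Mfng were lower in 4 against 3 alone (Dll4 9.15 to 18.5 and 0.488 to 0.82 CPM, adjusted p = 2.38e-05 and 0.0624). Endothelial cells are known to make Dll4, and the endothelial sum was lower in the same libraries, whose part in this was not tested. In the TGF-beta and BMP list 3 of 24 rose and 1 fell (4.1% and 4.12% of all genes). In 4 against 3, 5 were higher and 3 lower (10.3% and 14.0% of all genes). Inhba, the activin subunit, was at 1.82, 1.16 and 1.06 CPM, then at 11.9 and 58.6 CPM, then at 17.7 and 32.2 CPM (4.46, SE 0.80, adjusted p = 0.00132 and 0.0369). Tgfb1 (1.63, SE 0.33, adjusted p = 0.00314 and 0.0119) and the receptor Tgfbr2 rose, and Skil, an inhibitor of Smads, fell (-0.87, SE 0.20, adjusted p = 0.00638 and 0.0194).

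Of 21 matrix proteases and inhibitors 2 rose, the stromelysins Mmp3 and Mmp10, where 4.1% of all genes rose. Mmp3 was at 1.66, 3.99 and 4.9 CPM, then at 26.4 and 32.3 CPM, then at 63.7 and 169 CPM (4.04, SE 1.13, adjusted p = 0.0182 and 0.0482). Of 16 genes of epithelial to mesenchymal transition none passed both edgeR comparisons, and 5 had an unadjusted p under 0.05 in 4 against 3. In that list Snai1 and Snai2 were higher and Zeb1 and Zeb2 lower in 4 against 3 alone. Zeb2, which leukocytes and fibroblasts also express, was at 9.05 to 9.6 CPM and 0.478 to 1.27 CPM (adjusted p = 0.000679 and 0.101), and Snai2 at 1.09 to 3.23 and 7.87 to 20.8 CPM (adjusted p = 0.0349 and 0.0976).

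**Figure D5:**
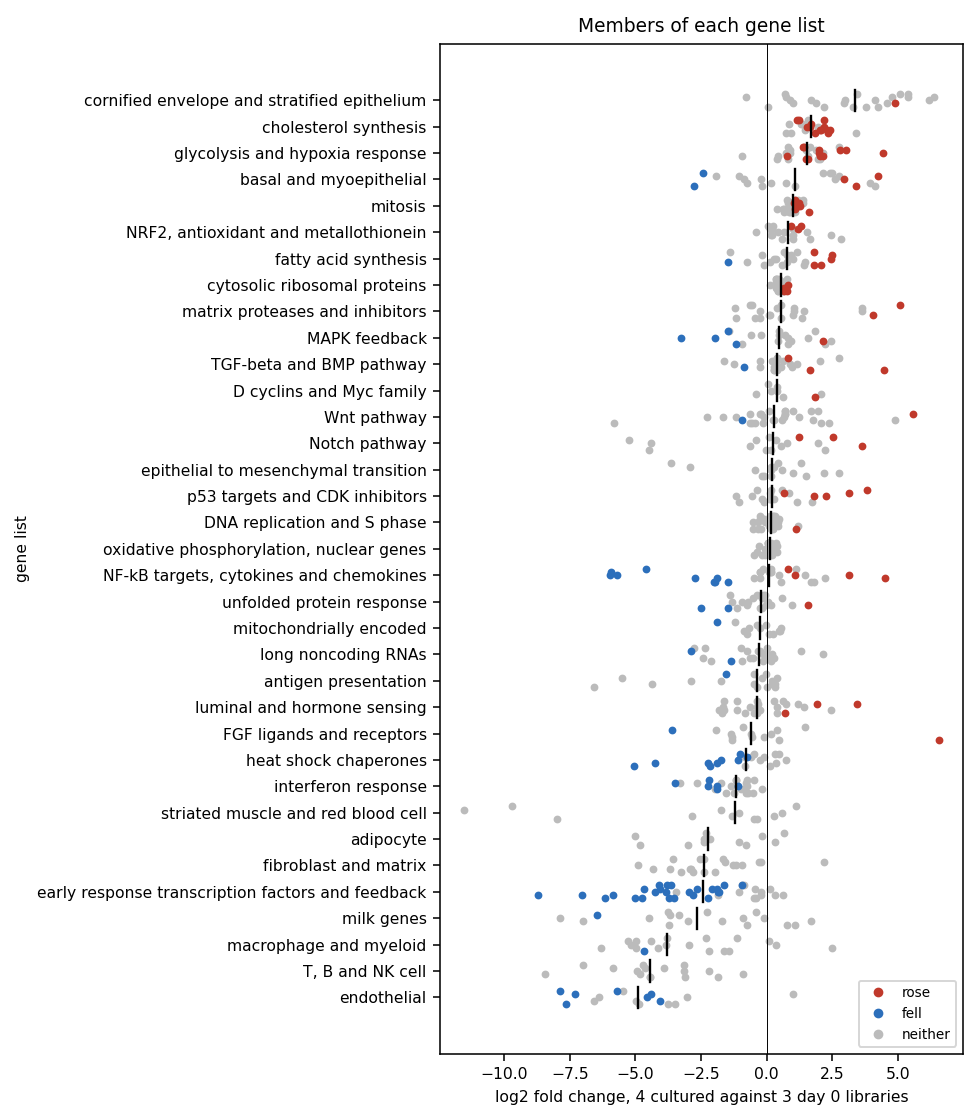
Log2 fold change in 4 against 3 (horizontal axis) of each tested member of the 35 gene lists, with genes that rose in red, genes that fell in blue, others in grey and a black bar at the list's median. Early response genes reach -8.70 and hold 25 blue points, and cholesterol genes lie wholly to the right of 0. The lymphocyte, fibroblast, adipocyte and muscle lists hold no coloured point, with medians of -4.45, -2.39, -2.23 and -1.19. Colour needs 5 against 3, which includes day 6 replicate 3, whose sums for these lists lay above day 0. Grey points there do not mean unchanged genes.

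Among protein coding genes, the 12 largest rises and 12 largest falls were named where the higher side averaged at least 10 CPM and the groups did not overlap. Atp6v0a4, a subunit of the proton pump V-ATPase (chr6:38048483-38124586, minus strand, GRCm38), was at 1.56, 1.16 and 0.71 CPM, then at 401 and 230 CPM, then at 521 and 636 CPM (8.56, SE 0.68, adjusted p = 4.84e-06 and 0.00605). It was at 110 to 183 CPM in cultured normal (WT) organoids and at 0.603 to 1.28 CPM in the tumor sections. Tmem213, which lies inside its span on the opposite strand (chr6:38109255-38115809), had 4 counts over the day 0 libraries and rose to 7.96 to 43.7 CPM. Without a known strand setting, reads of the pair cannot be told apart. Fcer2a, the low-affinity IgE receptor, rose from at most 0.142 CPM to 4.3 to 34.6 CPM (7.11, SE 0.64, adjusted p = 1.28e-05 and 0.00536). Aldh3a1, an aldehyde dehydrogenase, was at 0.104, 0.455 and 0.071 CPM, then at 4.01 and 101 CPM, then at 5.13 and 16.2 CPM, with day 6 replicate 2 far above the others.

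The 12 largest rises included genes of secreted ligands. Artn, which encodes artemin of the GDNF family, rose from 0.152 to 0.676 CPM to 3.85 to 21.5 CPM (5.16, SE 0.71, adjusted p = 0.00018 and 0.0221). The guidance ligand Slit1 was at 0.78, 1.31 and 0.461 CPM, then at 23.1 and 68.6 CPM, then at 19.6 and 53.7 CPM (5.60, SE 0.75, adjusted p = 0.000152 and 0.0146). Both were low in every day 0 library. Mogat1, an acyltransferase of triglyceride synthesis (5.55), the adrenergic receptor Adra1d (5.44) and Cdsn, corneodesmosin of cornified cells (5.15), were also among them, as were Fgfbp1 and Lef1.

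Of the 12 largest falls, 5 were the early response or cytokine genes Fosb, Atf3, Dusp1 and Il1b and the milk gene Csn2. Rgs1, a regulator of G protein signals, was at 38.8, 46.8 and 24.8 CPM, then at 0.434 and 0.205 CPM, then at 0.0335 and 0.111 CPM (-7.91, SE 0.44, adjusted p = 8.12e-08 and 0.000207). It was at 4.62 CPM in day 6 replicate 3 and at 3.12 to 4.47 CPM in the tumor sections. Ptprb, Tie1 and Robo4, known from blood vessel endothelium, fell to at most 0.217 CPM in every cultured library. Ptprb was at 13.7, 21.0 and 33.9 CPM at day 0 (-7.67, SE 0.74, adjusted p = 1.87e-05 and 0.0232), and in day 6 replicate 3 at 16.4 CPM, inside the day 0 range. The water channel Aqp1 (-7.23, SE 0.65, adjusted p = 1.29e-05 and 0.0314), Adamtsl2 and Galnt9 were the remaining ones. The endothelial sum moved with Ptprb, Tie1, Robo4 and Aqp1, and its part was not tested.

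Long noncoding genes fell more often than they rose. Of 1967 tested, 122 (6.2%) fell and 35 (1.78%) rose, where protein coding genes fell in 595 (3.88%) and rose in 706 (4.61%) of 15325. Reads on no gene were also higher at day 0. Malat1, a nuclear RNA, was at 1538, 1658 and 1543 CPM, then at 476 and 984 CPM, then at 249 and 806 CPM, and fell (-1.35, SE 0.36, adjusted p = 0.0148 and 0.0252). Neat1, its neighbour and the scaffold of paraspeckles, was at 884 to 1142 CPM, then at 378 and 1255 CPM, then at 270 and 991 CPM and passed neither comparison. For both, replicate 1 of each cultured set was low and replicate 2 higher. Xist was at 1905 to 2252 CPM and at 1656 to 2451 CPM. Pinc, a long noncoding RNA described in pregnant mammary gland, fell from 27.3, 57.0 and 91.3 CPM to 2.6 and 1.23 CPM, and to 3.22 and 1.99 CPM (-4.72, SE 0.96, adjusted p = 0.00292 and 0.01). It overlaps D530049I02Rik on the other strand, which fell too (-4.74, SE 1.00, adjusted p = 0.00367 and 0.00888), and reads of the pair cannot be told apart.

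Gm37352 (chr8:84200869-84203049, plus strand, GRCm38) was among the 4 largest falls of long noncoding genes and lies 5469 bases before the miR-23a hairpin, in a cluster with miR-27a and miR-24-2. It was at 46.5, 82.7 and 53.6 CPM, then at 2.22 and 6.97 CPM, then at 1.58 and 1.22 CPM (-4.58, SE 0.47, adjusted p = 2.54e-05 and 0.000293). The next genes on its strand were chosen for their position after its values were seen. The hairpin locus Mir23a was at 4.11, 5.61 and 4.83 CPM, then at 0.0543 and 0.376 CPM, then at 0.0 and 0.0737 CPM (-5.65, SE 0.85, adjusted p = 0.000353 and 0.00417). Mir27a was at 2.29, 3.34 and 3.19 CPM, then at 0.0543 and 0.307 CPM, then at 0.134 and 0.0368 CPM (-4.46, SE 0.60, adjusted p = 0.000143 and 0.00213). Mir24-2 had 0 counts in all 7 libraries. The noncoding gene Gm26532 beyond the hairpins (chr8:84208920-84209609) fell as well, from 37.9 to 57.0 CPM to 2.15 to 9.84 CPM (-3.08, SE 0.44, adjusted p = 0.000223 and 0.00141). Reads of polyadenylated RNA over a hairpin come from precursor transcripts, and mature miRNAs were not measured. The 3p strands of the hairpins that held counts are shown from RefSeq (GRCm38.p6), 5′ to 3′, with the seed (bases 2 to 8) in capitals, because their seeds start with the same letters but are not identical.
miR-23a-3p: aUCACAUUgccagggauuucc
miR-27a-3p: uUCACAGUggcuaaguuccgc

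Other noncoding genes named by size also overlap a coding gene. Gm17024 (37.6, 81.1 and 49.8 CPM, then 0.543 and 1.74 CPM, then 0.771 and 3.09 CPM; -5.22, SE 0.52, adjusted p = 2.19e-05 and 8.55e-05) overlaps Ifrd1 on the same strand, and Ifrd1 fell too (-2.24, SE 0.19, adjusted p = 9.58e-06 and 2.32e-05). Gm43361 (-5.52, SE 0.61, adjusted p = 3.62e-05 and 0.000117) overlaps the calcium pump gene Atp2a2, which did not pass (-0.09). Gm16010 rose from at most 0.416 CPM to 7.96 to 30.2 CPM (6.56, SE 1.26, adjusted p = 0.002 and 0.0314). It overlaps Spsb4 on the other strand, at 1.92 to 5.82 and 18.5 to 30.5 CPM (2.74, SE 0.67, adjusted p = 0.00915 and 0.0896). F730043M19Rik (2.43), Gm11613 (1.42) and 1810058I24Rik (0.58) were the other named rises.

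The day 6 and undated libraries, both after 6 days, were compared with each other. No gene passed (0.0% higher and 0.0% lower by edgeR), 1380 (7.38%) had an unadjusted p under 0.05, and DESeq2 called 35 higher and 27 lower at day 6. With only 2 libraries a side this does not show that the sets were alike. Against day 0, the undated libraries alone gave 1674 higher (8.95%) and 1717 lower (9.18%), and day 6 replicates 1 and 2 alone gave 1115 (5.96%) and 1317 (7.04%). These comparisons share the day 0 libraries. List medians in them were close for early response genes (-2.83 undated, -2.23 day 6), glycolysis (1.62 and 1.48), cholesterol synthesis (1.55 and 1.89) and mitosis (0.92 and 1.03). They were further apart for cornified genes, as above, and for mitochondrially encoded genes (0.39 and -0.89). Macrophage (-2.87 and -4.04) and fibroblast genes (-1.9 and -2.86) also differed. DNA replication and S phase genes had medians of opposite sign (-0.22 and 0.49). Between the sets, 12 of these 28 had an unadjusted edgeR p under 0.05, beside 7.38% of all genes.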

How the data were processed

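Polyadenylated RNA of 20 libraries was sequenced by the authors, who deposited raw counts of reads per gene. Per the submitters' processing notes, CASAVA, FastQC, STAR, HTSeq and DESeq2 were used with build mm10. Their versions, the annotation release and the strand setting of the counting are not given in the sources used here, so reads of overlapping genes on opposite strands cannot be told apart. Of 45318 gene identifiers, 44671 matched GENCODE M21, which gave names and positions. Rows that name no gene (reads on no feature, ambiguous reads) were left out of library sizes.

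Counts were fitted with edgeR 4.0.16 (quasi-likelihood test, TMM scaling, its expression filter by label group, robust) in R 4.3.3 over all 20 libraries, with 1 mean per label group. In the 4 against 3 comparison day 6 replicate 3 had a mean of its own (12 residual degrees of freedom), and in 5 against 3 it stayed in its labelled group (13). p-values were adjusted by Benjamini-Hochberg over 18698 genes, with a threshold of 0.05. CPM use the TMM-adjusted totals. DESeq2 1.42.0 served as an alternative. The others were RLE size factors, no filter, the PyMT organoid libraries alone, each cultured set alone, a replicate block and leaving out each library. The edgeR step was tested on simulated data.

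Day 0 and day 6 libraries of the same number deviated together from their group means (r = 0.287, 0.428 and 0.317 over genes, against -0.304 to -0.0352 for other pairs). Deviations within a group sum to 0, so the other pairs are not independent of these. On replicates 1 and 2 alone, the value was 0.421 for day 6 and -0.0153 for the undated libraries. The pairing comes from the data and the numbers in the titles.

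The members and the 35 gene lists were chosen with earlier results of these data known. Of 765 list entries 760 were in the tables. Genes named by rule passed both comparisons in 1 direction with at least 10 CPM on the higher side: the 12 largest rises and falls of protein coding genes and the 4 largest of long noncoding genes, both without overlap and without predicted names among coding genes, and up to 4 called members of each list, or its most abundant member where none was called. Other list members are given to show those that passed, or did not pass, beside them, and were chosen after their values were seen. Some genes that met the rule are not reported here.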

Additional observations from a re-analysis of the deposited data

Results flagged for a closer look

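In the 4 cultured libraries, 141 values were examined for a library whose gap to its nearest neighbour took up a share of the whole range above Dixon's critical value for 4 samples, and 7 met this. Chance alone marks about 1 in 20 such groups. Day 6 replicate 2 stood apart in 4 of them: it was low for Mogat1 (3.59 CPM, ratio 0.888), for Adra1d (3.18 CPM, ratio 0.942) and for the fibroblast and matrix sum (621 CPM, ratio 0.948), and high for Dusp1 (16.8 CPM, ratio 0.954). Day 6 replicate 1 was low for Csn2 (0.217 CPM, ratio 0.85). Undated replicate 1 was high for Etv4 (104 CPM, ratio 0.849), and undated replicate 2 stood apart in the sum of nuclear genes of oxidative phosphorylation (6108 CPM, ratio 0.965).

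The sum of 18 milk genes lay on opposite sides of the day 0 mean in the cultured sets. Day 0 averaged 22800 CPM (18516 to 29215 CPM), day 6 replicates 1 and 2 held 17558 and 6080 CPM, and the undated libraries held 25202 and 24346 CPM, both inside the day 0 range. All 4 cultured libraries were nevertheless below all 3 day 0 libraries for 10 of the 18 genes (19.6% of all genes). The sum thus does not show that single milk genes were kept in the undated libraries. This difference between the sets was not tested.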

How the results depend on the processing

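Counts of genes from 5 against 3 moved with most choices. With no filter on low counts 450 were higher and 446 lower, on the PyMT organoid libraries alone 7 and 59, with DESeq2 1480 and 1483, and with the replicate block 890 and 1276. Leaving out 1 library gave 67 to 1922 higher and 165 to 2605 lower, the upper ends without day 6 replicate 3. The 4 against 3 counts, 1918 and 2613, were 1674 and 1717 for the undated libraries alone and 1115 and 1317 for day 6 replicates 1 and 2 alone, and leaving out 1 of the 7 libraries gave 1146 to 1694 and 1709 to 2147. Leaving out Neu-NT tumor section replicate 3, which is in neither group compared, gave 2516 and 3212. They stayed within 1.5 times with no filter, RLE size factors, the PyMT organoid libraries alone, DESeq2 and the block (1611 and 2101). Between day 6 and undated libraries edgeR called 0 and 0 genes, DESeq2 35 higher and 27 lower, and leaving out 1 library gave 0 to 37 higher and 0 to 3 lower. The causes of these moves were not tested. In 4 against 3, no named gene changed direction under the alternatives run. Of 108 named genes, all kept their side of the threshold with the block and with RLE size factors, 106 with DESeq2, 107 with no filter, 103 on the PyMT organoid libraries alone and 102 to 108 with 1 library left out. Depth limits genes of few counts. Mir24-2, with 0 counts in all 7 libraries, gave no test. Mir3074-2, which overlaps it on the other strand, also had 0 counts, and the reason was not tested.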
